A study of Mus musculus with 12 samples.

Results

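The genes described here are 9 transcripts of the mural cells, the pericytes and vascular smooth muscle cells that wrap blood vessels. They are Pdgfrb, Rgs5, Kcnj8, Abcc9, Cspg4 and Notch3, used as pericyte genes, and Myh11, Cnn1 and Tagln, used as smooth muscle genes. They were taken by symbol from a table of raw read counts per gene, where each of the 9 stood in 1 of 56748 rows, and all 9 passed the filter on low counts that left 15742 genes for testing. The counts come from polyadenylated RNA of left ventricles of wild type C57BL/6J mice, 4 libraries in each of 3 groups, with tissue taken 14 days after surgery. The first group had an AAV9 vector for overexpression of Irx3, a homeobox transcription factor, and myocardial infarction by tying the left anterior descending coronary artery (Irx3 vector infarction). The second had an AAV9 control vector and the same infarction (control vector infarction), and the third had the control vector and sham surgery (sham). All mice thus carried an AAV9 vector, given by tail vein, and no group combined the Irx3 vector with sham surgery, so a vector effect without infarction cannot be told apart from one that needs it. The labels do not name the promoter of the vectors or the age of the mice.

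Pericytes sit on capillaries and smooth muscle cells on arteries and arterioles, where they set vessel tone and stability. Endothelial cells attract them with PDGF-B, which binds the receptor that Pdgfrb encodes, and hold them in a mature state through Notch ligands that bind the Notch3 receptor. Contraction rests on smooth muscle myosin and actin-binding proteins, and relaxation partly on ATP-sensitive potassium channels. None of the 9 genes is exclusive to mural cells: fibroblasts also use Pdgfrb, and cardiomyocytes also use Abcc9. In whole tissue, fewer cells of a type and less RNA per cell cannot be told apart.

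The promoters of Cnn1, Rgs5, Abcc9 and Kcnj8 are shown as examples. Each is the RefSeq window on GRCm38.p6 of 250 bases before to 50 bases after the gene's start, read 5′ to 3′ on the gene's strand. Cnn1 lies on the plus strand at chr9:22099003-22099302, Rgs5 on the plus strand at chr1:169655251-169655550, Abcc9 on the minus strand at chr6:142702225-142702524, and Kcnj8 on the minus strand at chr6:142571565-142571864. Capitals mark TGGGAA, the letters of a site bound by the Notch partner RBPJ.
Cnn1: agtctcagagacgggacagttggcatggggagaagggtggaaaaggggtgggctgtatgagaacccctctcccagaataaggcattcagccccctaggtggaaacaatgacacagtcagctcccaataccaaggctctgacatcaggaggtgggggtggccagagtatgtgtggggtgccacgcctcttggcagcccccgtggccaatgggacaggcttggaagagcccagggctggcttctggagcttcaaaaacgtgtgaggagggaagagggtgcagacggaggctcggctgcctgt
Rgs5: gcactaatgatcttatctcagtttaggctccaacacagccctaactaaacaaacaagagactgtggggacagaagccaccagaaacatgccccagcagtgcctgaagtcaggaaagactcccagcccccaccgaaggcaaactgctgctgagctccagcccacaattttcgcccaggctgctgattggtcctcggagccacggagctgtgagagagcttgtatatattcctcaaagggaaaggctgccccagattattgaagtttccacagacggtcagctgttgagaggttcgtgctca
Abcc9: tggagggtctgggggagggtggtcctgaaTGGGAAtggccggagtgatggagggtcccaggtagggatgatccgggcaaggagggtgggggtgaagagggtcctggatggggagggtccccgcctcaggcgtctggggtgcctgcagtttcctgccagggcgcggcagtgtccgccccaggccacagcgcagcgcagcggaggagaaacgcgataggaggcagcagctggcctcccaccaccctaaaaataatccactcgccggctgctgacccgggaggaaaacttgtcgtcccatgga
Kcnj8: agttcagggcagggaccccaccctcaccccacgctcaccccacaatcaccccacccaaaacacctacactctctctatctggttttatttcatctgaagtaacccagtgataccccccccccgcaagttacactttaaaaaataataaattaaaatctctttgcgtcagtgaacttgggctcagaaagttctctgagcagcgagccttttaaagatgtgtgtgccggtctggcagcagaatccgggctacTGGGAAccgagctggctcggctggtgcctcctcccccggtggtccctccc
The table held such a window for 6 of the 9 genes, all but Pdgfrb, Myh11 and Tagln. The windows of Notch3 and Cspg4 are not shown. TGGGAA, searched on both strands with no other motif overlapping it, was found in 2 of the 6, in Abcc9 from base 30 and in Kcnj8 from base 251 of the window, and in 25.6% of 32851 mouse promoters. The CArG box of serum response factor, which controls smooth muscle genes, was found in none of the 6 and in 1.63% of all promoters. ACANNTGT, a site known for Iroquois proteins in Drosophila, was found in none of the 6 and in 7.38% of all promoters. Kcnj8 and Abcc9 both lie on chromosome 6.

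Libraries held 13352604 to 19236721 counts. Irx3 was at 285 to 513 CPM (normalised read counts, with library sizes scaled by TMM) in Irx3 vector infarction libraries, against 16.8 to 30.5 CPM in control vector infarction libraries and 20.5 to 25.9 CPM in sham libraries (two-sided exact permutation test of Irx3 vector against control vector after infarction, p = 0.029, the smallest that 4 against 4 can give). The label names cardiomyocytes, but no gene of the macrophage, endothelial or fibroblast marker lists was at 0 in all libraries, so these were read as whole ventricle. Mitochondrial transcripts took 10.4 to 19% of counts in Irx3 vector infarction, against 0.926 to 5.64% in control vector infarction and 4.5 to 8.22% in sham. Across all genes, log2 fold changes with the Irx3 vector followed the GC content of the transcripts (Spearman rho -0.64 over 15161 genes, which are not independent), against 0.05 for infarction over sham. For that reason tests and counts that involve the Irx3 vector are set beside their values after a GC correction, while levels, sums and ratios are given as counted. The 9 genes span the range of GC content, with Rgs5 at the 11th percentile of genes tested, Abcc9 at the 29th, Cspg4 at the 90th and Notch3 at the 96th.

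After infarction pericyte genes changed in both directions, and none of the 3 smooth muscle genes passed the test. Between control vector infarction and sham libraries, edgeR's quasi-likelihood test with Benjamini-Hochberg adjustment over all genes called 5 of the 9 at an adjusted p under 0.05, beside 48.7% of all genes tested. Pdgfrb and Cspg4 rose, beside 26.3% of all genes, and Rgs5, Kcnj8 and Abcc9 fell, beside 22.4%. After a GC correction the same counts were called, 5 of the 9 beside 53.1% of all genes (2 higher beside 28.2%, 3 lower beside 24.9%). The infarcted and sham libraries did not overlap for 3 of the 9, beside 47.3% of all genes. The median log2 fold change was 0.37 over the 9 genes and 0.007 over all genes (0.25 and 0.011 after correction). The sum of the 6 pericyte genes was 1012 to 1126 CPM in control vector infarction and 1246 to 1297 CPM in sham. It was thus lower in every control vector infarction library than in any sham library. Within this sum, Abcc9, which cardiomyocytes also use, averaged 160 CPM in control vector infarction and 432 CPM in sham. Without Abcc9 the sums of both groups overlap.

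With the Irx3 vector after infarction, Cnn1, Abcc9 and Rgs5 were higher than with control vector, and Notch3 and Pdgfrb were lower. These are 5 of the 9 genes, beside 49.3% of all genes tested (3 higher beside 25.2%, 2 lower beside 24.1%). The libraries of both groups did not overlap for 4 of the 9, beside 41% of all genes. After the GC correction 3 of the 9 were called, beside 28.7% of all genes. Cnn1 and Abcc9 were higher, beside 15.2% of all genes, and Notch3 was lower, beside 13.5%. The median log2 fold change over the 9 genes was -0.38 as counted and 0.22 after correction, so its sign turned, against 0.002 and 0.024 over all genes. The sum of the pericyte genes was 1190 to 1333 CPM in Irx3 vector infarction, above all 4 control vector infarction libraries. Within it, Abcc9 averaged 365 CPM in Irx3 vector infarction and 160 CPM in control vector infarction, and Rgs5 474 and 227 CPM. Without Abcc9 the sums of both groups overlap, and so they do without Rgs5. These sums are as counted. The log2 fold change of Rgs5 was 1.06 as counted and 0.30 after GC correction, which did not pass (edgeR adjusted p = 0.194). Of the 6 genes, 2 were lower as counted and 1 after correction.

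Between Irx3 vector infarction and sham, 4 of the 9 genes were called, beside 62.9% of all genes. Cnn1 and Tagln rose, beside 35.2% of all genes, and Kcnj8 and Notch3 fell, beside 27.7%. Groups did not overlap for 4 of the 9, beside 60.8% of all genes. After the GC correction 5 were called, beside 55.2% of all genes. Pdgfrb, Cspg4, Cnn1 and Tagln were higher, beside 31% of all genes, and Kcnj8 was lower, beside 24.2%. The median log2 fold change over the 9 genes was 0.15 as counted and -0.18 after correction, the opposite sign, against 0.12 and 0.079 over all genes. The 3 comparisons share libraries, so their fold changes are not independent of each other.

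**Figure D1:**
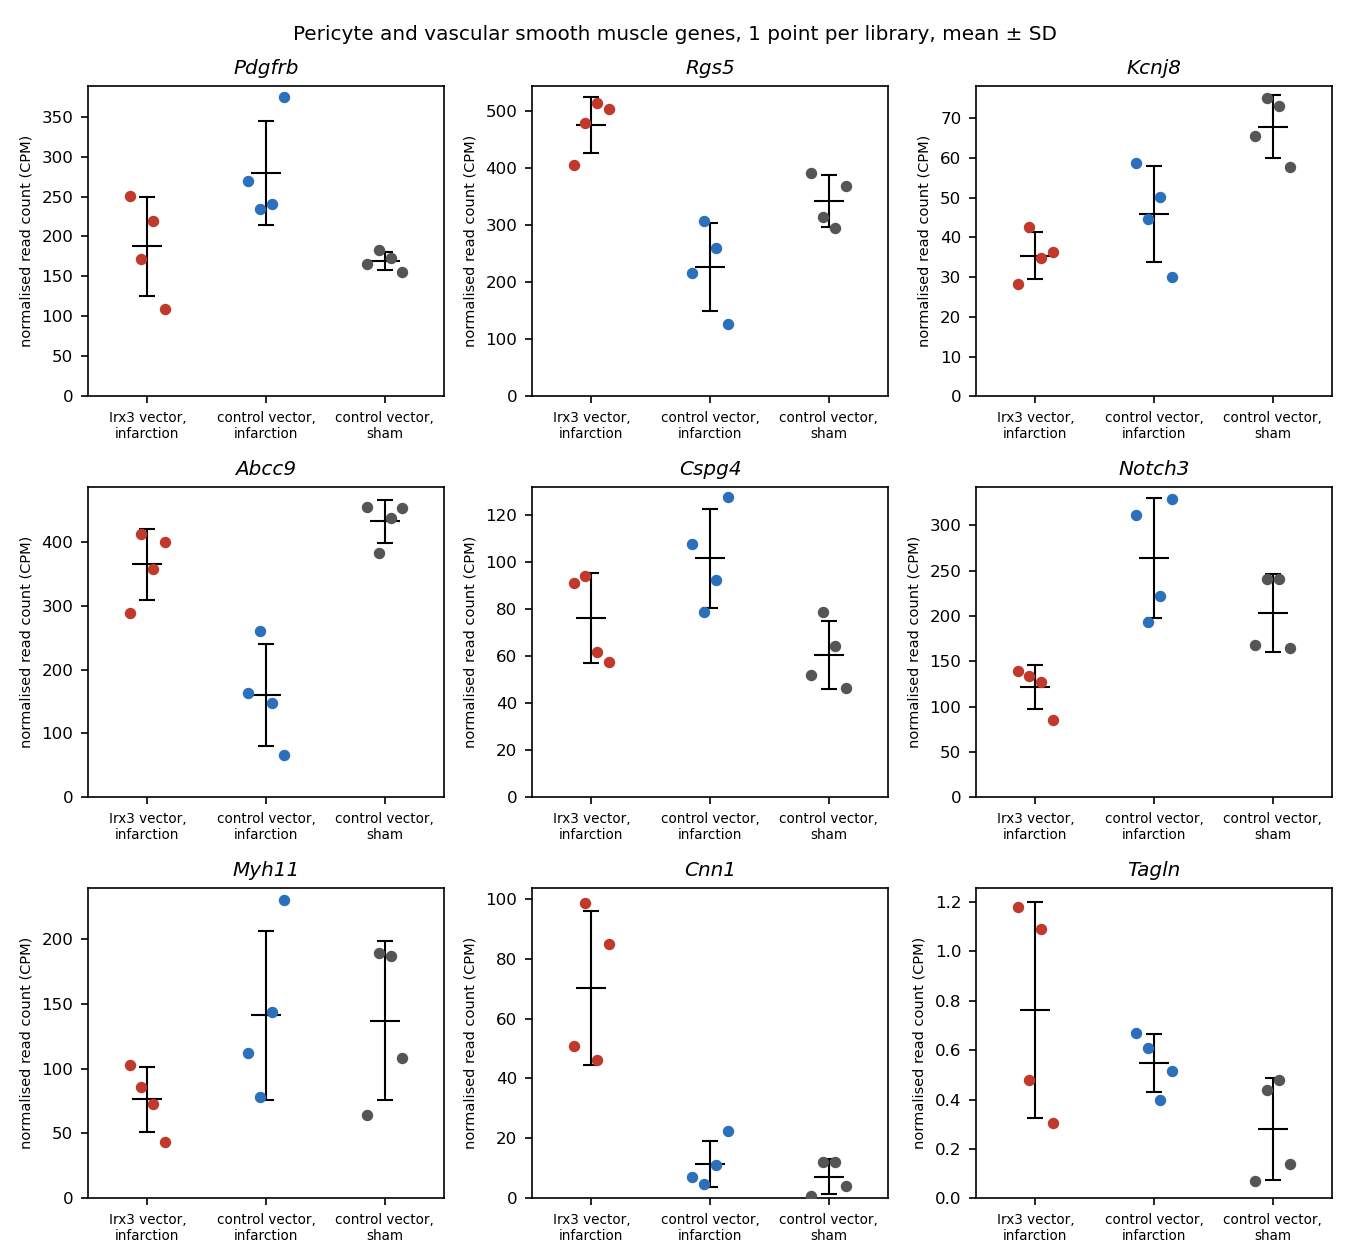
CPM of each of the 9 genes in every library, with Irx3 vector infarction, control vector infarction and sham from left to right and bars at the mean ± SD (n = 4 each); the axis starts at 0 CPM. Cnn1 sits between 46.2 and 98.7 CPM with the Irx3 vector, above all 8 other libraries, and Tagln is at 1.18 CPM or less throughout.

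**Figure D2:**
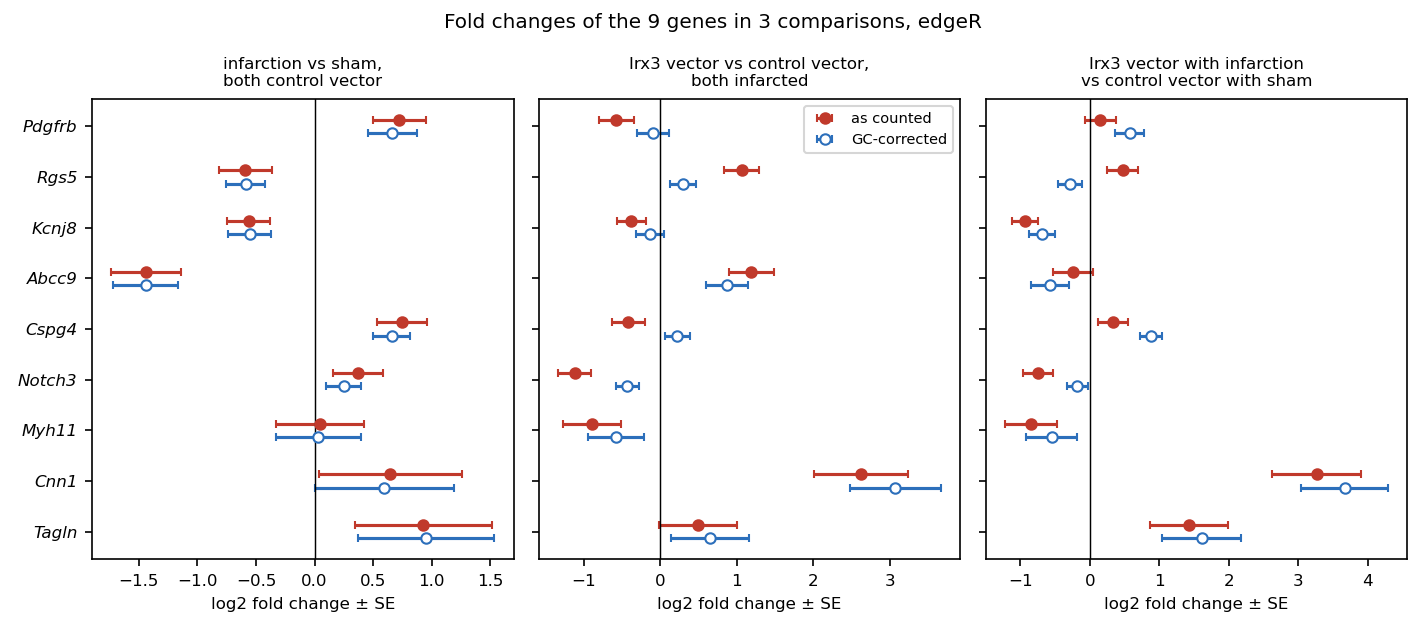
Log2 fold changes with standard errors for the 9 genes in the 3 comparisons, from edgeR, as counted and after GC correction. Cnn1 and Abcc9 lie right of 0 in both for Irx3 vector against control vector, while Rgs5 is at 1.06 as counted and 0.30 after correction.

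Pdgfrb, the receptor for PDGF-B, was at 251, 172, 219 and 109 CPM in Irx3 vector infarction libraries, 269, 234, 241 and 375 CPM in control vector infarction libraries and 166, 183, 173 and 156 CPM in sham libraries. Every control vector infarction library was above every sham library, while the Irx3 vector libraries spread across both ranges. The log2 fold change for infarction over sham was 0.73 ± 0.23 (SE, edgeR adjusted p = 0.0175), and without control vector infarction replicate 4 it was 0.49 with an adjusted p of 0.0814. For Irx3 vector over control vector it was -0.57 ± 0.23 (edgeR adjusted p = 0.0492), and after GC correction -0.09 (adjusted p = 0.773). The uncorrected call was also lost in 12 further alternatives, among them without control vector infarction replicates 1, 3 or 4 and without Irx3 vector replicates 2, 3 or 4. Over sham, Irx3 vector infarction was at 0.15 as counted (edgeR adjusted p = 0.577) and 0.57 after GC correction (0.0343). Fibroblast markers varied beside Pdgfrb: the summed CPM of 10 activated fibroblast markers, none of them at 0 in all libraries, was 3334 to 25677 in Irx3 vector infarction, 13350 to 37952 in control vector infarction and 373 to 567 in sham. All 10 rose with infarction, and with the Irx3 vector none was higher than with control vector, as counted or after GC correction. The 1 lower marker was not the same in both. Ltbp2 was lower as counted (edgeR adjusted p = 0.0193) but not after correction (0.124). Cthrc1 did not pass as counted (0.0827) and was lower after correction (0.0409). Of 8 resident fibroblast markers, 7 rose and 1 fell with infarction, and with the Irx3 vector none was higher and 5 were lower than with control vector, also after correction. Their sum was 2083 to 3362 CPM in Irx3 vector infarction, 3470 to 8127 CPM in control vector infarction and 1920 to 2329 CPM in sham. Within each of the 3 groups the highest and lowest Pdgfrb were in the libraries with the highest and lowest activated fibroblast sum, and the part of fibroblasts in the results was not tested.

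Of 5 other PDGF ligands and receptors, 2 rose with infarction and none fell. Counts in this and every other list here stand beside the shares of all genes tested. With infarction these shares were 26.3% higher and 22.4% lower. For Irx3 vector over control vector they were 25.2% higher and 24.1% lower as counted, and 15.2% and 13.5% after GC correction. Pdgfc, a ligand of the PDGF receptors, rose by a log2 fold change of 2.87 ± 0.26 (edgeR adjusted p = 1.86e-05), and Pdgfra, the receptor of fibroblasts, rose by 1.68 ± 0.23. With the Irx3 vector Pdgfc was higher than with control vector by 0.80 ± 0.22 (edgeR adjusted p = 0.00937), and after GC correction it was at 0.26 and did not pass (0.453). Pdgfb, the endothelial ligand, did not pass the test in any of the 3 comparisons as counted, with log2 fold changes of -0.26 for infarction over sham and 0.13 for Irx3 vector over control vector. After GC correction it was called higher for Irx3 vector over control vector (0.77, edgeR adjusted p = 0.00175) and for Irx3 vector infarction over sham (0.44, adjusted p = 0.0164). For Irx3 vector over control vector, 1 of the 5 genes was higher and none lower as counted, against 2 higher and 1 lower after correction. Besides Pdgfb, the corrected calls were the ligands Pdgfa, higher at 0.65 (edgeR adjusted p = 0.0104), and Pdgfd, lower at -0.88 (0.000808).

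Notch3, the Notch receptor of mural cells, was at 139, 134, 127 and 85.6 CPM in Irx3 vector infarction libraries, 311, 193, 222 and 329 CPM in control vector infarction libraries and 168, 241, 241 and 165 CPM in sham libraries. All 4 Irx3 vector libraries were below all 8 others. Irx3 vector over control vector gave a log2 fold change of -1.12 ± 0.22 (edgeR adjusted p = 0.00104), and after GC correction -0.43 (adjusted p = 0.0448). With that correction and without both infarcted replicates 4 it was -0.27 and did not pass (adjusted p = 0.132). Against sham it was -0.75 ± 0.22 (edgeR adjusted p = 0.00829) and -0.18 after correction (adjusted p = 0.314). For infarction over sham it was 0.37 ± 0.21, which did not pass (edgeR adjusted p = 0.167). An antisense transcript, Gm17276, overlaps 6.03% of the exon bases of Notch3 in the GENCODE M21 annotation on GRCm38, and the strand setting of the counting is not given in the sources used here.

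Among 14 other Notch ligands, receptors and targets, 5 rose and 6 fell with infarction. Jag1, a ligand of Notch receptors, rose by 1.01 ± 0.24 on the log2 scale and Notch2 by 1.26 ± 0.30, while the endothelial receptors Notch1 and Notch4 fell by 0.47 ± 0.18 and 0.63 ± 0.14. With the Irx3 vector 3 were higher and 6 lower than with control vector, and after GC correction 4 were higher and 4 lower. Notch4 was lower, with a log2 fold change of -1.47 ± 0.14 (edgeR adjusted p = 1.82e-05) and -0.82 after GC correction. Jag1 was lower too, at -0.69 ± 0.23 (edgeR adjusted p = 0.0259) and -0.82 after correction. Of the target genes Hes1 was higher by 0.51 ± 0.20 (1.19 after GC correction) and Nrarp by 0.74 ± 0.25 (1.16 after correction). Heyl, a target in mural cells, was at -0.18 ± 0.12 as counted, which did not pass. After correction it was called higher at 0.37 (edgeR adjusted p = 0.0324). The targets Hey1 and Hey2 did not pass as counted or after correction. Hey1 was at -0.13 as counted and 0.19 after correction, and Hey2 at 0.24 and -0.73.

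Cspg4 encodes the NG2 proteoglycan of the pericyte surface. It was at 91.3, 94, 62 and 57.6 CPM in Irx3 vector infarction libraries, 108, 79, 92.4 and 128 CPM in control vector infarction libraries and 52.2, 79, 64.4 and 46.7 CPM in sham libraries. The control vector infarction libraries lay above the sham libraries, but the lowest of them and the highest sham library both round to 79 CPM. Infarction over sham gave a log2 fold change of 0.75 ± 0.21 (edgeR adjusted p = 0.0103). For Irx3 vector over control vector it was -0.41 ± 0.21 and did not pass (edgeR adjusted p = 0.116), and after GC correction it was 0.22 (adjusted p = 0.312), the opposite sign. For Irx3 vector infarction over sham it was 0.33 ± 0.21 as counted (edgeR adjusted p = 0.183) and 0.88 after correction (0.000581).

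Rgs5, a GTPase-activating protein for G proteins and a marker of pericytes, was at 405, 478, 513 and 502 CPM in Irx3 vector infarction libraries, 216, 307, 259 and 126 CPM in control vector infarction libraries and 391, 313, 295 and 368 CPM in sham libraries. The Irx3 vector libraries were above all the others, and the control vector infarction libraries overlapped with sham. The log2 fold change for infarction over sham was -0.59 ± 0.22 (edgeR adjusted p = 0.0428), a call lost in 8 of 20 alternatives, among them without control vector infarction replicate 1 and without sham replicates 1, 2 or 4. For Irx3 vector over control vector it was 1.06 ± 0.23, a 2.09-fold difference (edgeR adjusted p = 0.00186), and after GC correction 0.30 (adjusted p = 0.194). Over sham it was 0.47 as counted, which did not pass (edgeR adjusted p = 0.0797), and -0.29 after correction (0.16). The Rgs5 transcript has a GC content of 43.3%, against 60.1% for Notch3.

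The ATP-sensitive potassium channel of mural cells is built from a pore subunit, encoded by Kcnj8, and a sulfonylurea receptor, encoded by Abcc9. Kcnj8 was at 28.2, 42.5, 34.7 and 36.3 CPM in Irx3 vector infarction libraries, 58.8, 44.7, 50.2 and 30.1 CPM in control vector infarction libraries and 65.6, 75, 73 and 57.7 CPM in sham libraries. All 4 Irx3 vector libraries were below all 4 sham libraries, and control vector infarction overlapped with both. Infarction over sham gave a log2 fold change of -0.56 ± 0.19 (edgeR adjusted p = 0.0228), lost without sham replicate 2 (0.0598) or 3 (0.0571). For Irx3 vector infarction over sham it was -0.94 ± 0.19 (edgeR adjusted p = 0.000759) and -0.69 after GC correction (0.00668). For Irx3 vector over control vector it was -0.38 ± 0.19 and did not pass (edgeR adjusted p = 0.11), and after GC correction -0.14 (0.614). Without control vector infarction replicate 4 the uncorrected value was -0.53 with an adjusted p of 0.0102.

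Abcc9 was at 289, 412, 358 and 400 CPM in Irx3 vector infarction libraries, 164, 261, 147 and 67 CPM in control vector infarction libraries and 455, 383, 438 and 453 CPM in sham libraries. The control vector infarction libraries were below all others, and the Irx3 vector libraries lay between them and sham with an overlap with sham. The log2 fold change for infarction over sham was -1.44 ± 0.30 (edgeR adjusted p = 0.00167). For Irx3 vector over control vector it was 1.19 ± 0.30 (edgeR adjusted p = 0.00503), and 0.87 after GC correction (0.0302). Both calls held in all 20 alternatives, with log2 fold changes of -1.84 to -1.18 for infarction and 0.60 to 1.54 for the vector. For Irx3 vector infarction over sham it was -0.24 and did not pass (edgeR adjusted p = 0.484), and after correction -0.57 (0.0906). Cardiomyocyte markers varied beside Abcc9: the summed CPM of 12 of them, none at 0 in all libraries, was 37257 to 65520 in Irx3 vector infarction, 30453 to 75202 in control vector infarction and 110706 to 127208 in sham. Within the control vector infarction group, Abcc9 and this sum had their highest and lowest values in the same libraries. In Irx3 vector infarction this held only in part. Replicate 1 had the lowest value of both, 289 CPM for Abcc9 and 37257 CPM for the sum. The highest Abcc9 was in replicate 2 and the highest sum in replicate 4. It did not hold in sham, where the highest Abcc9 was in replicate 1, which had the lowest sum. Both infarcted groups overlapped in that sum. In Abcc9 all 4 Irx3 vector libraries exceeded all 4 control vector infarction libraries as counted. Of the 12 markers 10 fell with infarction, and with the Irx3 vector 1 was higher and 3 lower than with control vector as counted (1 higher and 1 lower after GC correction). The part of cardiomyocytes in these results was not tested. An antisense transcript, 5330439B14Rik, overlaps 1.89% of the exon bases of Abcc9.

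The number of Abcc9 counts per Kcnj8 count within a library was 10.2, 9.7, 10.3 and 11 in Irx3 vector infarction, 2.8, 5.84, 2.92 and 2.23 in control vector infarction and 6.93, 5.1, 6 and 7.84 in sham. As counted, this ratio was higher in every Irx3 vector library than in any other. Little of its excess over sham remained after GC correction. For Irx3 vector infarction over sham, the log2 fold changes of Abcc9 and Kcnj8 were -0.24 and -0.94 as counted. After correction they were -0.57 and -0.69. The cardiomyocyte pore gene Kcnj11 fell with infarction by 1.07 ± 0.22 on the log2 scale (edgeR adjusted p = 0.00141), and Abcc8, the other sulfonylurea receptor gene, by 0.85 ± 0.18. With the Irx3 vector Abcc8 was lower than with control vector, at -0.73 ± 0.18 (edgeR adjusted p = 0.00436), but at -0.18 after GC correction, which did not pass (0.494). Kcnj11 was at -0.42 ± 0.22 as counted and 0.15 after correction and did not pass.

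**Figure D3:**
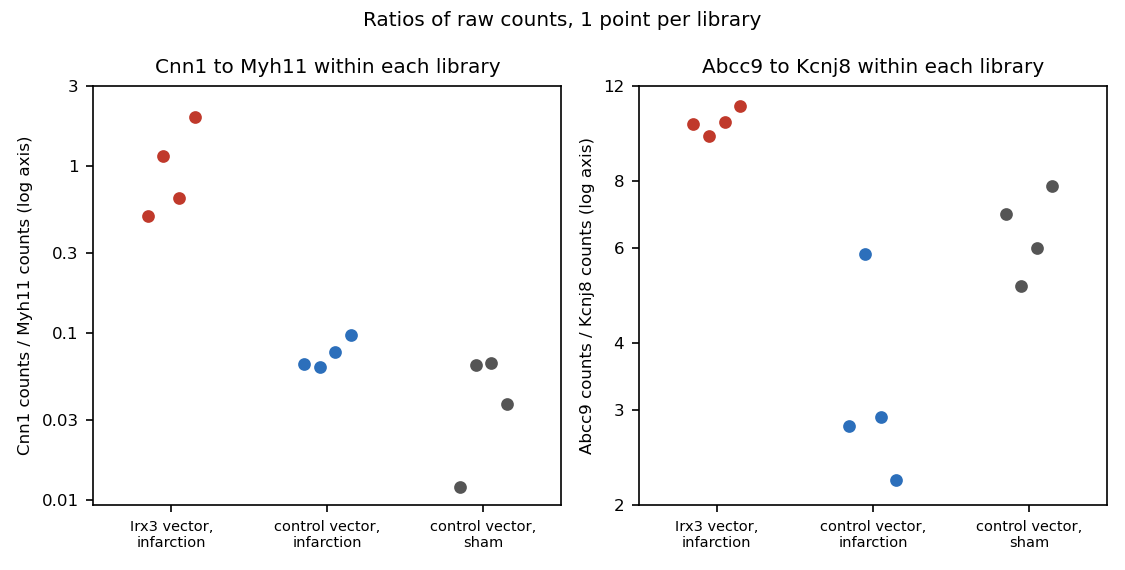
Ratio of raw counts within each library on a log axis, Cnn1 to Myh11 on the left and Abcc9 to Kcnj8 on the right, 1 point per library, with the groups in the order Irx3 vector infarction, control vector infarction and sham. As counted, without GC correction, both ratios are higher in all 4 Irx3 vector libraries, at 0.497 to 1.97 and 9.7 to 11, than in any other library.

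Myh11, the smooth muscle myosin heavy chain, was at 103, 86.1, 72.6 and 43.2 CPM in Irx3 vector infarction libraries, 112, 78.4, 144 and 230 CPM in control vector infarction libraries and 64.4, 189, 187 and 108 CPM in sham libraries. The groups overlapped. The log2 fold change was 0.04 ± 0.38 for infarction over sham (edgeR adjusted p = 0.93) and -0.89 ± 0.38 for Irx3 vector over control vector (adjusted p = 0.0664), and neither passed. The second passed without control vector infarction replicate 2, at -1.09 with an adjusted p of 0.033, and in DESeq2, and after GC correction it was -0.58 (adjusted p = 0.255). For Irx3 vector infarction over sham it was -0.85 and did not pass (edgeR adjusted p = 0.0662), but it did without sham replicate 1, without Irx3 vector replicate 1, and in DESeq2.

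Cnn1 encodes calponin, an actin-binding protein of contractile smooth muscle. It was at 51, 98.7, 46.2 and 85 CPM in Irx3 vector infarction libraries, 7.25, 4.88, 11.1 and 22.4 CPM in control vector infarction libraries and 0.772, 12.1, 12.2 and 4.03 CPM in sham libraries. Every Irx3 vector library was above every library of the other groups. Its log2 fold change for Irx3 vector over control vector was 2.62 ± 0.61, a 6.13-fold difference (edgeR adjusted p = 0.00349), and 3.07 after GC correction (0.00278). For Irx3 vector infarction over sham it was 3.27 ± 0.64, a 9.61-fold difference (edgeR adjusted p = 0.000668), and 3.67 after correction (0.000377). Both calls held in all 20 alternatives, over 2.36 to 3.45 and 2.88 to 3.67 on the log2 scale. For infarction over sham it was 0.65 ± 0.61 and did not pass (edgeR adjusted p = 0.401). Cnn1 counts per Myh11 count were 0.497, 1.15, 0.637 and 1.97 in Irx3 vector infarction, 0.0646, 0.0622, 0.0769 and 0.0974 in control vector infarction and 0.012, 0.0638, 0.0655 and 0.0375 in sham, so the ratio was highest in every Irx3 vector library. Neither of the other calponin genes rose with the vector as counted. Cnn2 was lower with the Irx3 vector, at -0.48 ± 0.18 (edgeR adjusted p = 0.04), but at 0.085 after GC correction, which did not pass (0.729). Cnn3 was at 0.10 ± 0.17 as counted and -0.15 after correction and passed in neither.

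Tagln encodes transgelin, an actin-binding protein usually abundant in smooth muscle. Here it held 24, 10, 20 and 4 counts in Irx3 vector infarction libraries, 13, 10, 7 and 10 counts in control vector infarction libraries and 1, 7, 7 and 2 counts in sham libraries. The totals were 58 counts in Irx3 vector infarction, 40 in control vector infarction and 17 in sham, and the groups overlapped. The log2 fold change over sham was 1.43 ± 0.57 for Irx3 vector infarction (edgeR adjusted p = 0.0417), a call lost in 7 of 18 alternatives, among them without sham replicates 1 or 4 and without Irx3 vector replicates 1 or 3, while infarction alone and Irx3 vector over control vector did not pass, at 0.93 ± 0.58 and 0.50 ± 0.51. After GC correction the value over sham was 1.61 (adjusted p = 0.0281), and that over control vector was 0.65 (0.361). In GENCODE M21, 62.4% of the exon bases of Tagln (1241 of 1988) lie in an antisense transcript, Gm48529, and 108 bases in the neighbouring gene Pcsk7. Gm48529 itself held 30, 23, 14 and 14 counts in Irx3 vector infarction, 10, 9, 7 and 11 in control vector infarction and 14, 6, 6 and 4 in sham. With the strand setting unknown, reads of the overlapping genes cannot be told apart, so the level of Tagln is uncertain. Its paralogue Tagln2 averaged 100 ± 16.6 CPM in Irx3 vector infarction and 97.4 ± 25.9 CPM in control vector infarction (SD, n = 4 each). The log2 fold change of Tagln2 between these groups was 0.04 ± 0.18 as counted and did not pass (edgeR adjusted p = 0.859). After GC correction it was called higher, at 0.68 (adjusted p = 0.00524).

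Of 22 other smooth muscle genes, 4 rose and 3 fell with infarction. With the Irx3 vector 2 were higher and 10 lower than with control vector, and after GC correction 2 were higher and 6 lower; the median log2 fold change was -0.56 over the list, against 0.002 over all genes. Acta2, the smooth muscle actin, which activated fibroblasts also make, was at 151, 107, 83.8 and 144 CPM in Irx3 vector infarction libraries, 203, 188, 304 and 455 CPM in control vector infarction libraries and 116, 286, 195 and 139 CPM in sham libraries. Its log2 fold change for Irx3 vector over control vector was -1.24 ± 0.33 (edgeR adjusted p = 0.00705) and -1.24 after GC correction. Ramp1, an accessory protein of the calcitonin-like receptor, was lower at -1.66 ± 0.24 and -1.13 after GC correction. Mustn1, a muscle nuclear protein, was lower at -1.27 ± 0.24 and -0.90 after correction. Vcl, the adhesion protein vinculin, was lower at -0.58 ± 0.10 and -0.61 after correction. Csrp2, a LIM-domain protein of smooth muscle, rose by 2.61 ± 0.30 with infarction and was lower with the Irx3 vector, at -1.07 ± 0.28 and -0.65 after correction, which did not pass. Other genes of the list were at higher levels as counted. Cald1 was at 86.3 to 170 CPM in Irx3 vector infarction and 58.5 to 77.2 CPM in control vector infarction. Synpo2 averaged 244 against 164 CPM and Tpm2 88 against 53.6 CPM, and both overlapped between these groups.

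**Figure D4:**
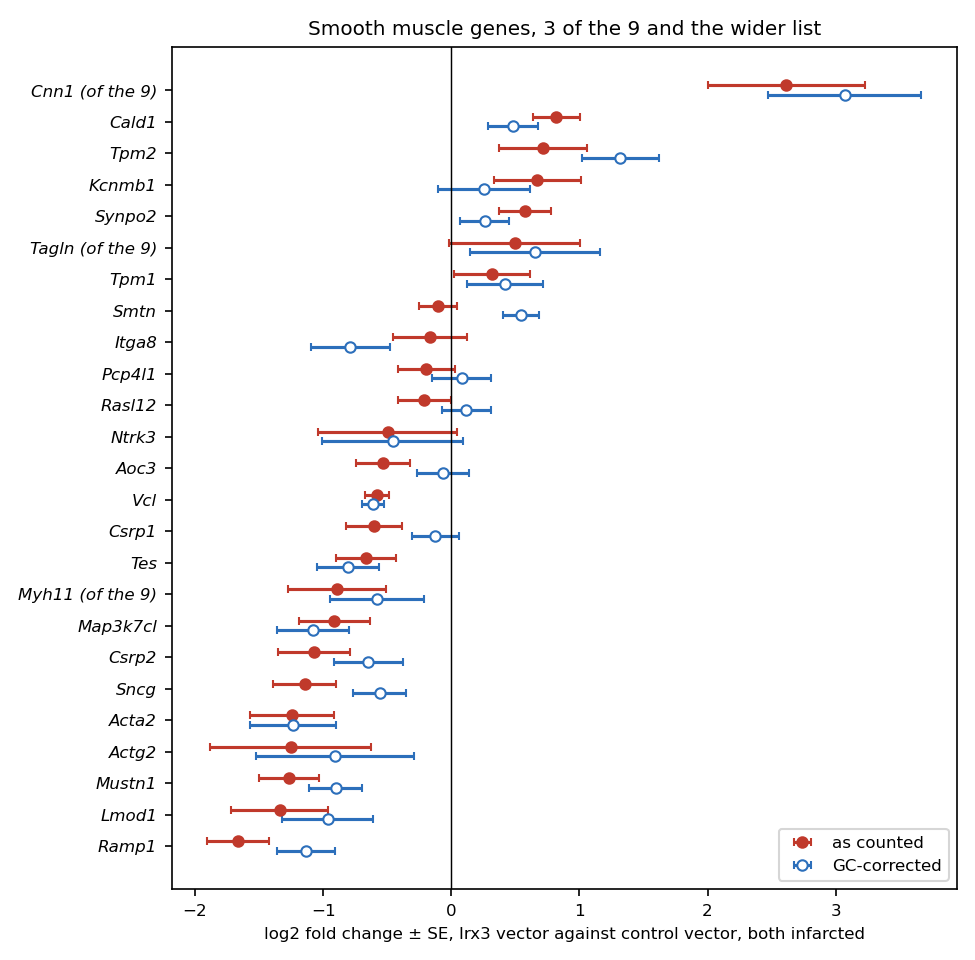
Log2 fold change for Irx3 vector against control vector after infarction of the smooth muscle genes, 1 row per gene, from edgeR with standard errors, as counted and GC-corrected. Cnn1 is at 2.62, while Acta2 is at -1.24 and Ramp1, the lowest, at -1.66 as counted.

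Of 16 other pericyte genes, 7 rose and 4 fell with infarction, beside 48.7% of all genes called in either direction. With the Irx3 vector 2 were higher and 2 lower than with control vector, a smaller share than the 49.3% of all genes called. After GC correction 1 was higher and 3 lower, beside 28.7% of all genes called. Tbx18, a transcription factor of mural cells, rose with infarction by 1.71 ± 0.23 on the log2 scale (edgeR adjusted p = 0.000104). Steap4, a metalloreductase, was higher with the Irx3 vector by 0.75 ± 0.13 and 0.11 after GC correction. Ndufa4l2, a mitochondrial protein of pericytes, was lower at -1.01 ± 0.17 and -0.33 after correction, and neither Steap4 nor Ndufa4l2 passed after correction. Endothelial markers, 12 in all, summed to 1314 to 1504 CPM in Irx3 vector infarction, 1545 to 2117 CPM in control vector infarction and 2026 to 2212 CPM in sham, with 3 higher and 8 lower for Irx3 vector over control vector as counted and 1 higher and 4 lower after GC correction.

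**Figure D5:**
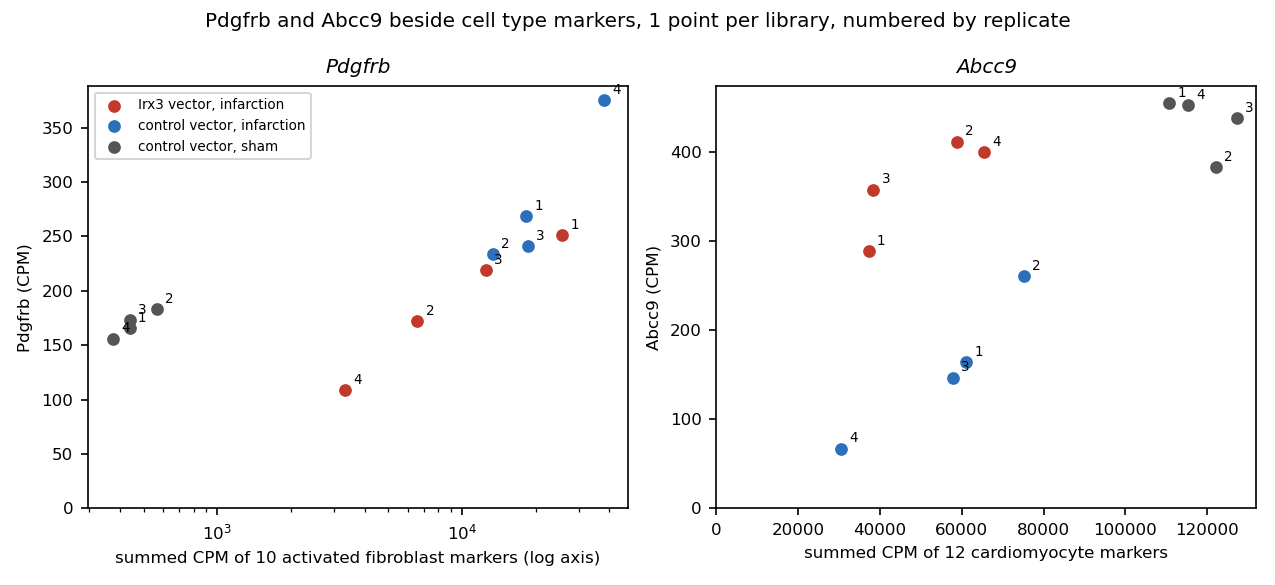
Levels of Pdgfrb and Abcc9 against the summed CPM of activated fibroblast and cardiomyocyte markers in each of the 12 libraries, 1 point per library, colored by group. Pdgfrb in the Irx3 vector group spans 109 to 251 CPM where the fibroblast sum spans 3334 to 25677 CPM.

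Per kilobase of exon, the order of levels differed between the groups. In Irx3 vector infarction Rgs5 was highest with a mean of 104 CPM per kilobase (range 89.1 to 113), and Abcc9, Pdgfrb and Cnn1 followed at 43.6, 34.3 and 25.7, none overlapping Rgs5 and each overlapping the next in range. In control vector infarction Pdgfrb and Rgs5 led at 51.1 and 49.9 and overlapped, with Notch3 at 32.6. In sham Rgs5 led at 75.2, Abcc9 followed at 51.6 and Pdgfrb at 30.9, and these 3 did not overlap. Cnn1 averaged 25.7 in Irx3 vector infarction, 4.17 in control vector infarction and 2.66 in sham, on the same scale. Tagln was lowest in all 3 groups, at 0.384 CPM per kilobase in Irx3 vector infarction, 0.276 in control vector infarction and 0.142 in sham.

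Patterns across the 12 libraries were compared by the root mean square difference of mean-centred log2 CPM, over 11172 genes of mean log2 CPM at least 2. The closest gene was Nebl for Rgs5 (0.109), Nav2 for Kcnj8 (0.122), Zswim8 for Notch3 (0.107) and Pcdhgb6 for Cspg4 (0.123). For Abcc9 the closest genes with a symbol were Efcab2 (0.159) and Dsc2 (0.160), and for Tagln it was Armc7 (0.457). Lmod1, a smooth muscle leiomodin, was closest to Myh11 at 0.245. Cnn1 had no close match, the nearest being Kcnj14 at 1.005. Many genes share these libraries' depth and base composition, so a close match is a description.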

How the data were processed

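Polyadenylated RNA of 12 left ventricles was sequenced, 1 library per sample, 4 per group, in 1 batch per the labels. The deposited values are raw counts per gene, which the authors made after fastp trimming on genome build GRCm39 (mm39), per the submitters' processing notes. The aligner, counting tool and strand are not given in the sources. The labels number the samples of a group and do not say more of their origin, so p-values measure only the spread among these samples.

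Tests used edgeR 4.0.16 (R 4.3.3) with TMM factors, the filterByExpr filter, robust quasi-likelihood fitting, 1 term per group and 9 residual degrees of freedom, and Benjamini-Hochberg adjustment over 15742 genes, with calls at an adjusted p under 0.05. The counts table has no gene lengths, so exon length and GC content came from GENCODE M21 on GRCm38, matched for 96.3% of genes tested. The GC correction is a per-library spline with 6 degrees of freedom entered as an offset. Alternatives were DESeq2 1.42.0, other factors and filters, a fold change above 1.5, a replicate block and leaving out libraries. Members, lists and alternatives were chosen with earlier results of these data known. Named genes were the members, Acta2, all ligands, receptors, channel partners and paralogues in the lists, and the 3 of smallest p per list and contrast. Scripts were tested on simulated data. Some genes that this rule gave are not reported here.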

Additional observations from a re-analysis of the deposited data

How the results depend on the processing

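Several alternatives changed single calls, and counts moved by more than 1.5 times under these. Testing for a fold change above 1.5 called 1 of the 9 genes for infarction over sham (3689 of all genes), 4 of the 9 (2787 of all genes) for Irx3 vector over control vector, and 2 of the 9 (5535 of all genes) for Irx3 vector infarction over sham. GC correction called 3 of the 9, 4346 of all genes and 50 of the genes in the context lists, against 76 without it, for Irx3 vector over control vector. Leaving out both infarcted replicates 4 together with GC correction called 2 of the 9 and 3992 of all genes there, and 7 of the 9 (9338 of all genes) for Irx3 vector infarction over sham. Leaving out 1 library at a time called 3 to 5 of the 9 and 6708 to 8513 of all genes for infarction over sham, with 3 of the 9 and 7065 of all genes without sham replicate 2. Signs reversed for Myh11, Cspg4, Pdgfrb and Rgs5. For infarction over sham Myh11 was -0.29 without both replicates 4, -0.28 with GC correction as well, and -0.35 to 0.24 with 1 library left out, below 0 in 4 cases (-0.19, -0.06, -0.01 and -0.35). For Irx3 vector over control vector Cspg4 was 0.22 with GC correction and 0.37 without both replicates 4 as well, where Pdgfrb was 0.21. For Irx3 vector infarction over sham Rgs5 was -0.29 with GC correction and -0.30 without both replicates 4 as well (edgeR adjusted p = 0.0356), and Pdgfrb was -0.074 to 0.34 with 1 library left out, the lowest without Irx3 vector replicate 1. The cause of these changes was not tested.

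The replicate numbers do not pair the samples: residual correlations of same-number libraries ran from -0.599 to 0.177, and 0 of 12 libraries were closest to their own number. With the replicate block, 4, 4 and 3 of the 9 genes were called for infarction, for Irx3 vector over control vector and for Irx3 vector infarction over sham, and 6624, 6679 and 9077 of all genes. Over single genes, 468 alternatives gave the same direction and call, 40 lost the call, 15 gained one and 12 reversed. Tagln held 1 to 24 counts per library, which limits the precision of its fold changes. Whether its antisense overlap lowered these counts was not tested.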

Other observations

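Genes that control the contractile state were also read as lists. Beside their counts, 26.3% of all genes tested were higher and 22.4% lower with infarction. For Irx3 vector over control vector 25.2% were higher and 24.1% lower, and 15.2% and 13.5% after GC correction. Of 12 smooth muscle regulators tested, 4 rose and 3 fell with infarction, and 1 was higher and 7 lower with the Irx3 vector than with control vector; after GC correction 1 was higher and 4 lower. Klf15, a Kruppel-like factor also used by cardiomyocytes, was lower with the Irx3 vector, at -2.23 ± 0.17 on the log2 scale (edgeR adjusted p = 5.76e-06) and -1.79 after GC correction. Klf4, which represses smooth muscle genes, was lower at -1.10 ± 0.13 and -0.44 after correction, and Prrx1, a mesenchymal homeobox gene, was higher by 0.91 ± 0.11 as counted but at 0.17 after correction, which did not pass (adjusted p = 0.405).

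Of 11 myosin partners, 4 rose and 2 fell with infarction, and 1 was higher and 5 lower with the Irx3 vector; after GC correction none was higher and 2 were lower. Myl9, the regulatory light chain of smooth muscle myosin, rose with infarction by 1.13 ± 0.41 on the log2 scale and was lower with the Irx3 vector, at -1.89 ± 0.41 (edgeR adjusted p = 0.00233) and -1.27 after GC correction. Of 14 paralogues of Rgs5 tested, 5 rose and none fell with infarction, and 4 were higher and 2 lower with the Irx3 vector as counted, against 2 higher and 3 lower after GC correction. Rgs16 was higher at 1.04 ± 0.23 (1.39 after correction) and Rgs6 at 0.71 ± 0.17 (0.67 after correction). After correction of the infarction comparison, 7 paralogues were higher and 1 lower, beside 28.2% and 24.9% of all genes.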
